A study of Mus musculus with 11 samples.

Results

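The genes described here were 10 members of the ETS transcription factor family, Ets1, Ets2, Elf1, Elf2, Elf4, Erg, Etv6, Gabpa, Spib and Elk3, out of 22359 protein-coding mouse genes. They were chosen by family membership and name, and the reads of a PU.1 chromatin immunoprecipitation (ChIP-Seq) were counted over each gene body and 10 kb on each side of it. PU.1 itself, encoded by Sfpi1, is an ETS factor, so these are genes of its own family. The reads came from leukemic MEL cells, which are murine erythroleukemia cells (clone 4 in the labels, DS19 in the study's methods) that stably carry Gata-1 fused to ER, and from ES-EP, erythroid progenitors derived from embryonic stem cells and kept proliferating in erythropoietin, stem cell factor, insulin-like growth factor and dexamethasone. MEL cells were kept in serum and puromycin. The labels name no further treatment or time point for either cell type, and MEL cells are represented by 1 clone. PU.1 was precipitated from 2 chromatin preparations of each cell type, A and B, and each preparation was sequenced as 2 libraries, which were summed. The letter in the sample titles was read as the preparation and the digit as the library, which the titles do not spell out. Input chromatin gave the background, with 1 library for MEL cells and 2 for ES-EP. The preparations held 5697937 to 7095855 uniquely placed reads, the MEL input 4278560 and the ES-EP input 7488885. The preparation was the replicate (n = 2 per cell type), and nothing states that the preparations came from separately grown cultures, so the p-values between cell types measure the spread between preparations. The files hold no expression values, and the cell types were not checked against markers here.

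ETS factors share a winged helix-turn-helix DNA-binding domain that reads a GGAA core, and members differ in the bases they prefer beside it. PU.1 prefers an adenine-rich 5′ side, with GAGGAAGT as a common form, while most of the other members prefer CCGGAAGT. Several members act at the same stages of blood formation as PU.1, which drives myeloid and B-lymphoid development and whose level falls as erythroid cells mature. Ets1 and Ets2 belong to the founding subfamily and Elf1, Elf2 and Elf4 to the ELF subfamily. Gabpa is the DNA-binding subunit of GABP, Etv6 (TEL) is a repressor needed in the bone marrow, and Erg maintains blood stem cells. Spib is the closest relative of PU.1, and Elk3 is a partner of serum response factor.

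PU.1 reads were enriched in either cell type at 9 of the 10 genes, beside 35.9% of all protein-coding genes, and no enriched site was found at Elk3. In 500 bp windows placed every 250 bp, the reads of each preparation were compared with the depth-scaled input of the same cell type by a one-sided exact Poisson test, and a window was called where the adjusted p was below 0.05 in both preparations. The expected number of reads was set by the input after scaling for depth, as the highest of its values for the window, the surrounding 5 kb and 10 kb and the genome. Across the genome, 0.132% of windows were called in MEL cells, against 0.0954% in ES-EP. Among the 4570 windows of the 10 genes the shares were 0.744% and 0.547%. Joining touching windows gave 19 sites, of which 15 were called in MEL cells, against 12 in ES-EP. An exact binomial test, which counts the sampling error of the input too, gave 3 and 4 sites, and counting only library 1 of every preparation gave 5 and 4. Of the 19, 8 were called in both cell types (42.1% of the 19, against 30.9% of all 10487 sites), 7 were called in MEL cells but not in ES-EP (46.1% of all sites) and 4 in ES-EP but not in MEL cells (22.9% of all sites). A site that passed in 1 cell type is not shown by that to differ between them. The difference was tested with limma on the same reads, so a site that entered through its call in 1 cell type was chosen by the group in which it was high. When 1 preparation decided the call alone, MEL cells gave 23 sites without preparation A and 17 without B, and ES-EP gave 14 without A and 23 without B. Shares over the genome are not given for these calls, the binomial test or library 1 alone. The changed counts are therefore not a result about the 10 genes.

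Enriched windows lay both at transcription start sites (TSS) and inside the genes. Promoter sites, with their centre within 2 kb of a protein-coding TSS of the gene, numbered 8, of which 7 were called in MEL cells, against 5 in ES-EP. Internal sites, elsewhere in the gene body, numbered 10, of which 8 were called in MEL cells, against 6 in ES-EP, and 1 site lay in a flank. Promoter sites thus made up 42.1% of the 19, beside 39.7% of all sites. Promoter windows were called at 5.98% in MEL cells, against 3.70% in ES-EP, beside 1.32% and 0.882% of all windows within 2 kb of a protein-coding TSS. Internal windows were called at 0.373% and 0.315%, beside 0.103% and 0.0853% of all other windows in protein-coding genes. The called windows were unevenly spread over the genes. Of the 21 promoter windows called in MEL cells, 7 lay at Elf1 and 8 at Elf2. Of the 13 called in ES-EP, 6 lay at Elf2. Neighbouring windows overlap, so a peak can count more than once. A promoter site was called in MEL cells at 5 of the 10 genes, Ets2, Elf1, Elf2, Elf4 and Etv6, against 16.0% of all protein-coding genes. In ES-EP it was called at Elf1, Elf2, Elf4, Etv6 and Gabpa, also 5 of 10, against 10.6%. A site of any class was called at 7 of the 10 genes in each cell type, against 29.6% of all genes in MEL cells, against 22.5% in ES-EP. Neither these shares nor those of promoter sites were matched for gene length or for the number of annotated TSSs. The members had from 1 (Spib) to 6 (Erg) protein-coding TSSs. The genes differ in length from 6.08 kb (Spib) to 234 kb (Etv6).

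PU.1 reads at the promoters spanned a wide range, from Elf2 and Elf4 at the top to Spib and Erg at the bottom in both cell types. Each gene was given the reads within 500 bp of its TSS with the most PU.1 reads, scaled to 1000000 reads of the preparation (RPM). The Elf2 promoter held 8.78 and 19.3 RPM in MEL preparations A and B, against 47.4 and 19.7 in those of ES-EP. The Elf4 promoter held 8.07 and 11.9 in MEL cells, against 32.0 and 13.4 in ES-EP, and the Elf1 promoter at its first TSS held 6.49 and 9.45 in MEL cells, against 16.1 and 8.46 in ES-EP. These 3 ELF genes lay above 96.5% to 99.1% of all promoters in MEL cells and above 96.3% to 99.5% in ES-EP. The rank rests on PU.1 reads alone, without the input, and a gene with more TSSs had more to choose from. At the Elf1 promoter in ES-EP these reads were only 1.91 and 1.01 times the depth-scaled input. The median promoter held 1.40 RPM in MEL cells, against 1.41 in ES-EP, and 8 of the 10 members lay above it in each cell type. The exceptions were Spib, with 0.764 ± 0.336 RPM (SD, n = 2) in MEL cells, against 0.811 ± 0.248 in ES-EP, and Erg, with 0.319 ± 0.0458 and 0.980 ± 0.190.

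**Figure D1:**
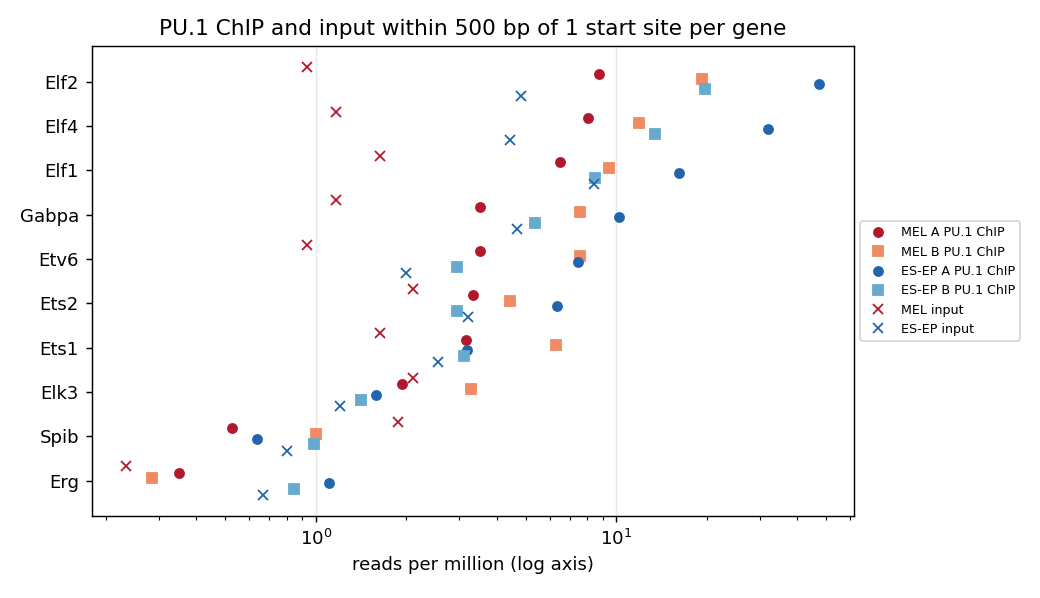
PU.1 and input reads within 500 bp of 1 TSS of each of the 10 genes, in RPM on a log axis, for both cell types; points stand for preparations A and B and for the input. Elf2, Elf4 and Elf1 lie highest, and Spib and Erg lowest, in both cell types.

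The order of neighbouring promoters was mostly within the spread between preparations. In MEL cells the means fell from Elf2 (14.0 ± 7.46 RPM, SD, n = 2) over Elf4 (9.98 ± 2.69), Elf1 (7.97 ± 2.09), Gabpa (5.55 ± 2.88) and Etv6 (5.55 ± 2.88) to Ets1 (4.73 ± 2.22), Ets2 (3.89 ± 0.779) and Elk3 (2.61 ± 0.963). Neighbours did not overlap only between Ets2 and Elk3, Elk3 and Spib, and Spib and Erg. In ES-EP the means fell from Elf2 (33.6 ± 19.6) over Elf4 (22.7 ± 13.1), Elf1 (12.3 ± 5.38), Gabpa (7.77 ± 3.41), Etv6 (5.22 ± 3.20) and Ets2 (4.66 ± 2.41) to Ets1 (3.14 ± 0.0579) and Elk3 (1.5 ± 0.129). There, neighbours did not overlap between Ets1 and Elk3 and between Elk3 and Erg.

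None of the 10 promoters passed the test of a difference between MEL cells and ES-EP. In limma voom, fitted on all 22359 promoters with library size as scaling, 0 of the 10 passed at an adjusted p below 0.05, and 0 were below 0.05 unadjusted. Their limma adjusted p ran from 0.797 to 0.985. No promoter of the genome passed in either direction (0% and 0% called), 1367 were below 0.05 unadjusted, and a limma fit of log2 RPM plus 0.5 called 0 as well. Other alternatives called promoters elsewhere in the genome and none of the 10. Median-ratio scaling called 286 higher in MEL cells and 138 higher in ES-EP (1.90% in all), windows of 1 kb on each side 28 and 16, a minimum of 20 reads 15 and 11, and the preparation letter as a block 5 and 0. The log2 differences (MEL over ES-EP) lay between -1.41 for Erg (95% interval -2.95 to 0.14) and 0.72 for Elk3 (-0.46 to 1.91), beside a median of -0.23 over all promoters. The intervals are wide, as for Elf2, at -1.26 (-2.99 to 0.47), and do not show that the promoters held equal occupancy.

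Input reads at the promoters also differed between the cell types. The ES-EP input exceeded the MEL input at 8 of the 10 promoters, as it did at 63.2% of all promoters. Elf1 held 8.41 RPM in the ES-EP input and 1.64 in the MEL input, and Elf2 held 4.81 and 0.935. The share of reads within 500 bp of a TSS was 2.39% in the MEL input and 4.27% and 5.67% in the ES-EP inputs, 3.96% to 7.64% in the MEL PU.1 libraries and 4.51% to 10.6% in those of ES-EP. PU.1 reads exceeded the input in both preparations at 8 of the 10 promoters in MEL cells and at 8 in ES-EP. These excesses were not tested, and the share over all promoters is not given. They include Erg in MEL cells, with 2 reads in each preparation over 1 input read. They also include Elf1 in ES-EP, at 1.01 times the input in preparation B. As an alternative chosen after seeing the data, the input was taken from the surrounding 5 kb, 10 kb and genome mean without the window itself. Called sites then rose from 15 to 21 in MEL cells and from 12 to 20 in ES-EP. Genes with a promoter site rose from 5 to 7 in each cell type. Shares over all genes under this setting are not given, so the rise is not a result about the 10 genes.

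Elf1, a factor active in blood and lymphoid cells, was occupied at a TSS inside the gene and at its first TSS, and these sites stood on unlike backgrounds. The downstream site (mm9 chr14:79915251-79915750, 5′ UTR and exon, 34.5 kb from the first TSS) held 13 and 32 reads in preparations A and B of MEL cells, against 63 and 48 in those of ES-EP. The input held 1 read in MEL cells, against 2 in ES-EP, so that the reads were 8.87 and 17.8 times the expected number in MEL cells, against 28.9 and 19.5 times in ES-EP. It was called in both cell types, with adjusted p (exact Poisson test) between 8.60e-06 and 8.23e-64. ES-EP held more reads in both preparations, but limma did not pass the difference (log2 MEL over ES-EP -1.35, SE 0.69, adjusted p = 0.177). With median-ratio scaling the limma adjusted p was 0.0196, and it ranged up to 0.872 over the alternatives.

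The only GGAA of the downstream Elf1 window lay 44.5 bp from the point of highest read density (the summit), and it is shown because this was the Elf1 site with the most depth-scaled reads and was called in both cell types. The strand is minus, chr14:79915466-79915495, and capitals mark the core.
Elf1 downstream TSS: tcctgcagattggGGAAgtctgctcagctt

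At the first TSS of Elf1 (chr14:79880751-79881250, 5′ UTR and exon), MEL preparations held 23 and 37 reads and ES-EP preparations 53 and 40. The ES-EP input held 31 reads there and the MEL input 5. PU.1 reads were 3.45 and 4.53 times the expected number in MEL cells, and 2.04 and 1.36 times in ES-EP, where preparation A passed (adjusted p = 0.00109, exact Poisson test) and B did not (1.00). Both ES-EP preparations held more reads than both MEL preparations, without a call. A start of Wbp4 lies 75 bp away, so the reads cannot be given to 1 of these genes. The window had a GC content of 73.4%, against 42.6% at the downstream site.

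**Figure D2:**
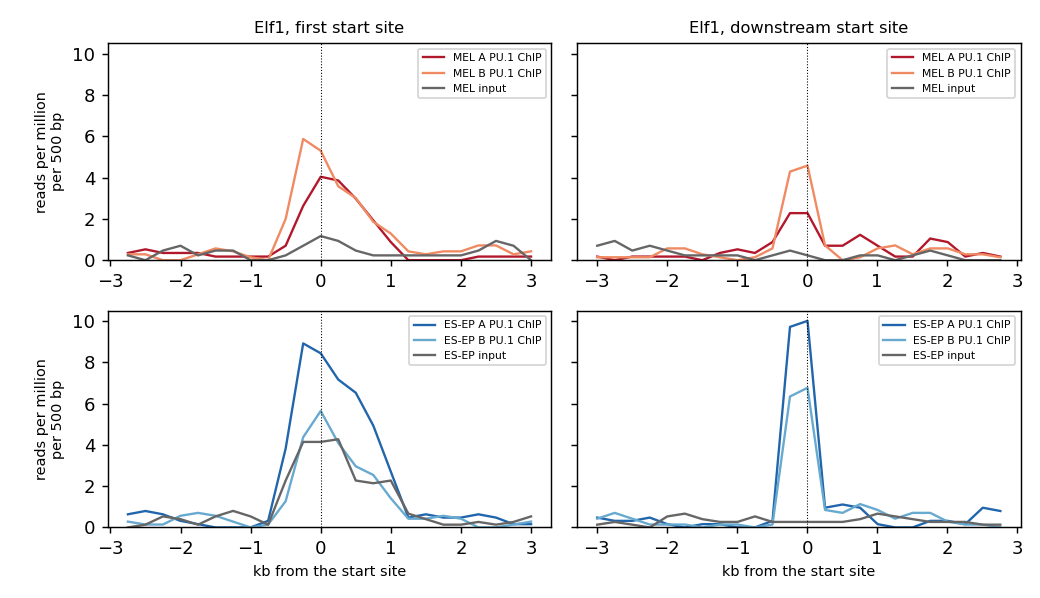
PU.1 and input reads around the first and the downstream TSS of Elf1, in RPM per 500 bp, for MEL cells and ES-EP. Each TSS has its own panels, drawn against the distance in kb from that TSS. The PU.1 reads of both cell types stand over a low input at the downstream TSS, 34.5 kb from the first. At the first TSS the ES-EP input is also raised.

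Elf2 (NERF), an ELF factor with activating and repressing isoforms, carried the most PU.1 reads of any member site. This site (chr3:51080501-51081000) lay in an intron, 686 bp downstream of an internal TSS and 63.8 kb from the first. It held 59 and 125 reads in the MEL preparations, 243 and 103 in those of ES-EP, and 6 and 18 in the inputs. Reads were 7.38 and 12.8 times the expected number in MEL cells, against 16.1 and 6.04 times in ES-EP, with adjusted p of 4.64e-27 or lower in every preparation (exact Poisson test). ES-EP preparation A stood highest and preparation B lay between the MEL values, and the groups overlapped (limma log2 MEL over ES-EP -0.81, SE 0.82, adjusted p = 0.538).

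The site held 5 copies of GGAAGT, the 6 bases that the PU.1 form and the CCGGAAGT form have in common, and a run with 4 of them is printed to show their spacing. It was chosen after its values were seen, and reads chr3:51080534-51080791 on the minus strand, which is the strand of the gene. GGAAGT and its reverse complement are in capitals.
Elf2 internal TSS: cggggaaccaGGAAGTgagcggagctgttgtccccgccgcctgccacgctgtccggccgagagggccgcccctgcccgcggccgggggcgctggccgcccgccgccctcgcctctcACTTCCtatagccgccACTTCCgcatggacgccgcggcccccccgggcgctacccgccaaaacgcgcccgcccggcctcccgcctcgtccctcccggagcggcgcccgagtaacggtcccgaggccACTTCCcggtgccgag
The copy nearest the summit lay 8.5 bp from it, and it is 1 of the adjacent pair in the middle of the run.

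The first TSS of Elf2 had a second promoter site (chr3:51144751-51145250, -434 bp from it), which was called in MEL cells and not in ES-EP. It held 18 and 45 reads in MEL cells, against 77 and 29 in ES-EP, while the inputs held 2 and 31. PU.1 reads were 6.76 and 13.8 times the expected number in MEL cells, and 2.96 and 0.987 times in ES-EP. As at the first TSS of Elf1, the ES-EP input was the higher, and limma did not pass a difference in PU.1 reads (log2 -0.68, SE 0.70, adjusted p = 0.544). An intronic site 7.3 kb from the first TSS (chr3:51137001-51137500) was called in ES-EP and not in MEL cells, with 10 and 13 reads and 0 in the input. MEL cells held 14 and 14 reads there over an input of 5, so the MEL reads were no fewer, and limma gave a log2 difference of 0.37 (SE 0.56, adjusted p = 0.688).

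Elf4 (MEF), an ELF factor that controls the quiescence of blood stem cells and the function of natural killer cells, had 1 promoter and 1 internal site, both called in both cell types. The promoter site (chrX:45806751-45807250, overlapping the 5′ UTR, 346 bp downstream of the internal TSS) held 36 and 56 reads in MEL cells, against 149 and 72 in ES-EP, over inputs of 1 and 14. Reads were 15 and 19.1 times the expected number in MEL cells, against 12.7 and 5.43 times in ES-EP. Both ES-EP preparations held more reads than both of MEL cells, and limma did not pass the difference (log2 -1.13, SE 0.77, adjusted p = 0.348). The internal site (chrX:45797751-45798250, intron, 18.3 kb from the first TSS) held 13 and 19 reads in MEL cells, against 26 and 28 in ES-EP, with 0 and 1 in the inputs. Its reads were 12.1 and 14.4 times the expected number in MEL cells, against 22 and 21 times in ES-EP, and the groups did not overlap, though limma gave an adjusted p of 0.483 (log2 -0.68, SE 0.61).

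The Elf4 promoter is shown by the GGAA nearest its summit, 6.5 bp away, chosen after the values were seen (plus strand, chrX:45806894-45806941), and by the GAGGAA match nearest the window centre, 297.5 bp from the summit (plus strand, chrX:45807194-45807223). Capitals mark the matches.
Elf4 nearest the summit: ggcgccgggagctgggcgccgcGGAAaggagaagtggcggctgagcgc
Elf4 GAGGAA: gccccggatgaaGAGGAAccagggtgccgg

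**Figure D3:**
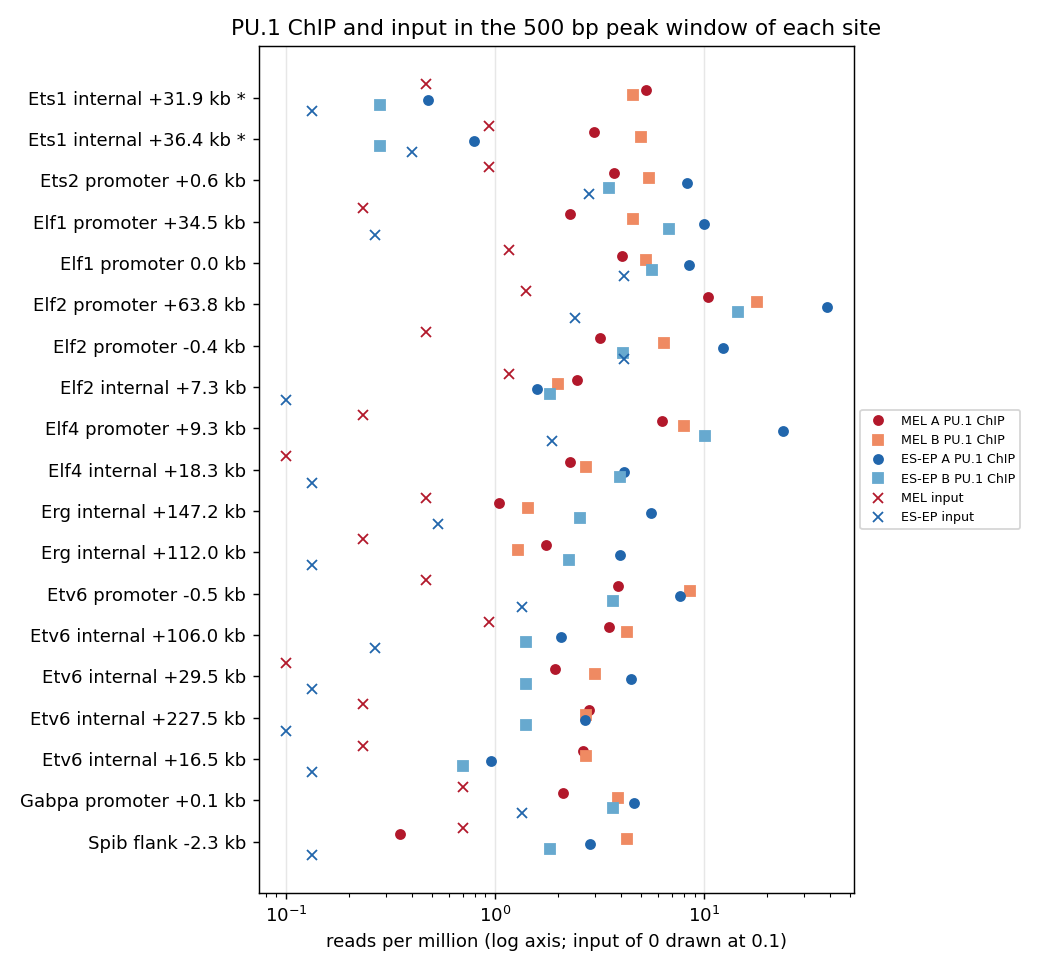
PU.1 reads of each preparation, and input, at the 19 sites of 9 ETS genes, in RPM on a log axis, with sites named by gene and kb from the first TSS. An asterisk marks the 2 Ets1 sites with an adjusted p below 0.05 in the limma fit over called sites, where both MEL preparations stand above both ES-EP preparations; an input of 0 is drawn at 0.1.

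Ets1, a factor of lymphoid development and the founding member of the family, held the 2 sites of the 19 that passed the limma fit over called sites. Both entered that fit through their calls in MEL cells, the group in which they were high, and neither passed when windows entered whatever their call. Both lay in introns and were occupied in MEL cells, and neither was called in ES-EP. At the first (chr9:32475501-32476000, 31.9 kb from the first TSS) the MEL preparations held 30 and 32 reads and the ES-EP preparations 3 and 2, with 2 and 1 in the inputs. MEL reads were 10.5 and 9.11 times the expected number and ES-EP reads 1.99 and 1.17 times. The MEL libraries held 10, 20, 11 and 21 reads and the ES-EP libraries 0 to 3. Occupancy was 4.92 ± 0.485 RPM in MEL cells, against 0.380 ± 0.138 in ES-EP (SD, n = 2), and limma gave a log2 difference of 3.52 (SE 0.79, 95% interval 1.97 to 5.06), or 11.4-fold higher in MEL cells, with an adjusted p of 4.68e-04. The second site (chr9:32480001-32480500, 36.4 kb from the first TSS) held 17 and 35 reads in MEL cells, against 5 and 2 in ES-EP, with 4 and 3 in the inputs. MEL reads were 3.19 and 5.36 times the expected number and ES-EP reads 1.99 and 0.704 times. The second site passed narrowly in MEL preparation A (adjusted p = 0.0264, exact Poisson test), against 6.77e-12 in B. Its log2 difference was 2.84 (SE 0.73, 95% interval 1.42 to 4.27), or 7.17-fold higher in MEL cells, with a limma adjusted p of 0.00244. No ES-EP library reached the reads of any MEL library at either site, but libraries of a preparation are not replicates and the sites were chosen by their MEL calls.

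Among all 10487 sites, limma called 10.2% higher in MEL cells, against 5.23% higher in ES-EP, and 2913 sites were below 0.05 unadjusted. Of the 19 sites here, 2 passed higher in MEL cells, 0 passed higher in ES-EP and 5 were below 0.05 unadjusted. Median-ratio scaling moved the median log2 difference over all sites from -0.22 to -0.03, and 6 of the 19 then passed (31.6%), beside 30.4% of all sites. In a limma fit added after seeing the data, on all 130180 windows with at least 20 PU.1 reads over the 4 preparations whatever their call, the Ets1 differences were 3.55 (95% interval 0.63 to 6.46) and 2.95 (0.77 to 5.13), with limma adjusted p of 0.583 and 0.449. None of the 19 sites passed in it, beside 0.154% of the windows higher in MEL cells and 0.0730% higher in ES-EP. The Ets1 calls were also lost without either MEL preparation, while the differences kept their direction at 3.41 and 3.62 (first site) and 3.23 and 2.51 (second). The same fits called 27 sites higher in MEL cells and 7 higher in ES-EP over the whole genome without MEL A, and 9 and 4 without MEL B. Without MEL A the limma adjusted p was 0.0780 at the first site and 0.0843 at the second, without MEL B 0.104 and 0.145, and at the second site without ES-EP B 0.0618 (log2 difference 2.14). Input reads in the 1 Mb around the sites were 1.72 and 1.73 times as many in MEL cells as in ES-EP after scaling for depth, while over the whole of chromosome 9 the ratio was 0.874. With this regional ratio subtracted, the log2 differences were 2.73 (limma adjusted p = 0.0102) and 2.05 (0.0429).

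The sites of Ets1 are shown on the plus strand, the first by the GGAA and the second by the GAGGAA nearest the centre of its window, and the second also by the GGAAGT nearest the summit, on the minus strand and chosen after the values were seen. They read chr9:32475738-32475793, chr9:32480177-32480234 and chr9:32480213-32480262, and capitals mark the matches.
Ets1 31.9 kb: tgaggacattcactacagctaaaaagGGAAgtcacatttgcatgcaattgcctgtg
Ets1 36.4 kb: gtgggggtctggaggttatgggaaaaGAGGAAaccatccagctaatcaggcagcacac
Ets1 36.4 kb, minus strand: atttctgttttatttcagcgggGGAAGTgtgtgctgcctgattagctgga
The first lay 9.5 bp from its summit and the third 14.5 bp from its own.

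The promoter of Ets1 with the most reads, 59.8 kb downstream of the first TSS, was not called and did not pass the limma test. It held 18 and 44 reads in MEL cells, against 20 and 22 in ES-EP within 500 bp. Relative to input the reads were 1.93 and 3.85 times as many in MEL cells, against 1.25 and 1.22 times in ES-EP. Limma gave a log2 difference of 0.48 (SE 0.61, 95% interval -0.78 to 1.74, adjusted p = 0.851), and its difference from the intronic sites was not tested.

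**Figure D4:**
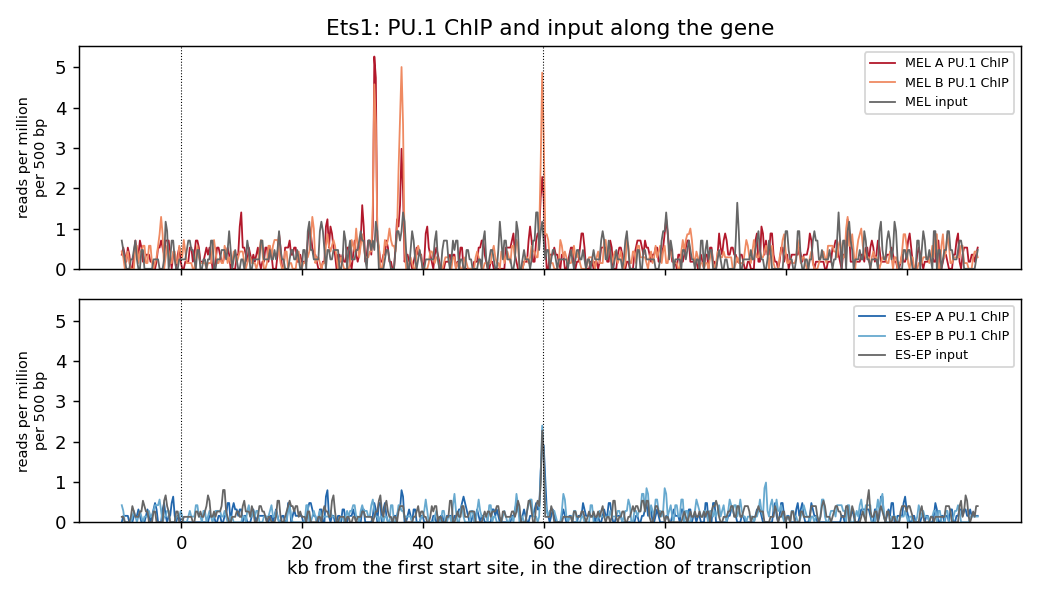
PU.1 and input reads across Ets1, in RPM per 500 bp, against the distance in kb from the first TSS, for MEL cells and ES-EP. The MEL reads rise at 31.9 and 36.4 kb, where the ES-EP reads stay near their input.

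Ets2, which is activated by Ras and MAP kinase signalling, had 1 site, at its promoter (chr16:95924001-95924500, 5′ UTR and exon, 568 bp downstream of the TSS). It held 21 and 38 reads in MEL cells, against 52 and 25 in ES-EP, over inputs of 4 and 21. It was called in MEL cells, at 3.94 and 5.82 times the expected number. In ES-EP, preparation A passed (2.95 times, adjusted p = 2.31e-08) and B did not (1.26 times, 1.00, exact Poisson test). The groups overlapped, and limma gave a log2 difference of -0.30 (SE 0.68, adjusted p = 0.797).

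Etv6, whose human counterpart is often rearranged in leukemia, held the most sites of the 10 genes, with 1 at the promoter and 4 internal. The promoter site (chr6:133985001-133985500, -468 bp from the TSS) was called in both cell types. It held 22 and 60 reads in MEL cells, against 48 and 26 in ES-EP, over inputs of 2 and 10. These reads were 8.26 and 18.4 times the expected number in MEL cells, against 5.72 and 2.74 times in ES-EP. The preparations of each cell type differed more from each other than the cell types did, and limma gave a log2 difference of 0.08 (SE 0.70, adjusted p = 0.950).

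The promoter of Etv6 is shown on the minus strand by the GGAAGT nearest the summit, 12.5 bp away and chosen after the values were seen (chr6:133985204-133985253), and by the GAGGAA nearest the window centre (chr6:133985298-133985355), 110.5 bp from the summit.
Etv6 nearest the summit: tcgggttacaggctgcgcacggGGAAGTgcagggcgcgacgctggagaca
Etv6 GAGGAA: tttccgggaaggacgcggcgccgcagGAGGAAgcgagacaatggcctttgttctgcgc

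Inside Etv6, an intronic site 106.0 kb from the first TSS (chr6:134091501-134092000) was called in both cell types, with 20 and 30 reads in MEL cells, against 13 and 10 in ES-EP, over inputs of 4 and 2. Both MEL preparations stood above both ES-EP preparations, and limma did not pass the difference (log2 1.14, SE 0.60, adjusted p = 0.192). With median-ratio scaling, which passed 30.4% of all sites, its limma adjusted p was 0.0124. With windows taken whatever their call it was 0.785. A site at 29.5 kb (chr6:134015001-134015500, intron) was called in MEL cells and not in ES-EP, with 11 and 21 reads there, 28 and 10 in ES-EP and 0 and 1 in the inputs. ES-EP preparation A held the most reads of the 4 at this site and B the fewest (exact Poisson adjusted p = 2.13e-18 and 0.159), and the log2 difference was -0.08 (SE 0.58). The other internal sites, named after their values were seen, lay at 227.5 kb in a coding exon, with 16 and 19 reads in MEL cells, against 17 and 10 in ES-EP and calls in both, and at 16.5 kb in an intron. The last held 15 and 19 reads in MEL cells, where it was called, and 6 and 5 in ES-EP, at 3.97 and 2.93 times the expected number (limma log2 1.63, SE 0.63, adjusted p = 0.0582).

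**Figure D5:**
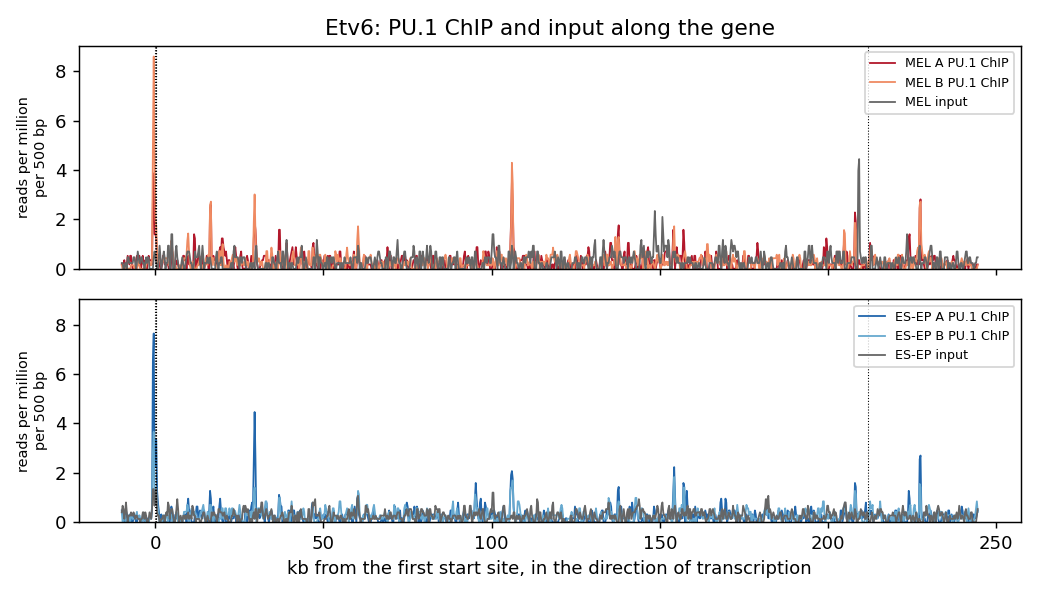
PU.1 and input reads across Etv6, in RPM per 500 bp, against the distance in kb from the first TSS, for MEL cells and ES-EP. Reads of both cell types rise at the promoter and at 29.5, 106.0 and 227.5 kb, and the site at 16.5 kb was called in MEL cells and not in ES-EP, where reads were 3.97 and 2.93 times the expected number.

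Erg, the close relative of Fli1 that maintains blood stem cells, had called sites inside the gene and none at its promoters. Its promoter with the most reads held 2 and 2 in MEL cells, against 7 and 6 in ES-EP, over inputs of 1 and 5. These are too few to show that PU.1 was absent there. The site at 147.2 kb from the first TSS (chr16:95660751-95661250, intron) held 6 and 10 reads in MEL cells, against 35 and 18 in ES-EP, with 2 and 4 in the inputs. It was called in ES-EP and not in MEL cells, at 10.4 and 4.75 times the expected number, and the groups did not overlap. Limma gave a log2 difference of -1.56 (SE 0.61, 95% interval -2.76 to -0.36) with an adjusted p of 0.0647. The site entered that fit through its call in ES-EP, the group in which it was high. The limma adjusted p was under 0.05 in 3 alternatives (0.0238 to 0.0473) and not in the others. With windows taken whatever their call it was 0.515. The site at 112.0 kb (chr16:95696001-95696500, intron) held 10 and 9 reads in MEL cells, against 25 and 16 in ES-EP over 1 input read in each, and was called in both (limma log2 -0.97, SE 0.58, adjusted p = 0.273). Its GAGGAA nearest the window centre lay 24.5 bp from the summit (plus strand, chr16:95696254-95696311), and is shown as the Erg site called in both cell types.
Erg 112.0 kb: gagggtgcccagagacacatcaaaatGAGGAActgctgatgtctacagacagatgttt

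Gabpa, whose product activates nuclear genes for mitochondrial proteins, had 1 site, at its promoter (chr16:84835001-84835500, 5′ UTR and exon, 79 bp downstream of the TSS). It held 12 and 27 reads in MEL cells, against 29 and 26 in ES-EP, over inputs of 3 and 10. ES-EP passed in both preparations, at 3.46 and 2.74 times the expected number. MEL preparation B passed at 5.51 times (adjusted p = 3.12e-09) and A did not, at 3.0 times (0.277, exact Poisson test). Limma gave a log2 difference of -0.53 (SE 0.62, adjusted p = 0.595). A TSS of Atp5j, a subunit of the mitochondrial ATP synthase, lies 498 bp away, so the reads cannot be given to 1 of these genes.

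Spib, a factor of B cells and plasmacytoid dendritic cells, had no promoter site, and 1 site outside the gene, at -2309 bp from its TSS (chr7:51789501-51790000). There the ES-EP preparations held 18 and 13 reads, at 6.70 and 4.29 times the expected number, and the site was called in ES-EP. The MEL preparations went apart, with 2 reads in A (0.351 RPM) and 30 in B (4.29 RPM), over an input of 3. Both libraries of A held 1 read, while those of B held 11 and 19. Limma gave a log2 difference of -0.69 (SE 0.58, adjusted p = 0.451), which ranged from -2.45 without MEL B to 0.87 without MEL A.

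Elk3 (Net), which represses serum response genes until it is phosphorylated, was the member with no called site. Its window with the most reads, in the gene body 49.4 kb from the nearest TSS, held 13 and 20 reads in MEL cells, against 12 and 6 in ES-EP, with 4 and 2 in the inputs. These were 2.44 and 3.06 times the expected number in MEL cells, against 7.15 and 3.17 times in ES-EP.

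The signs of the differences were counted for promoter and internal sites apart, and the contrast between these classes was not tested. Of the 8 promoter sites, 1 had a log2 difference above 0 (higher in MEL cells) and 7 below, with a median of -0.63. Of the 10 internal sites, 6 lay above 0 and 4 below, with a median of 0.43, and 2 of the 6 were the Ets1 sites. Over all sites, those within 2 kb of a TSS had a median of -0.52 (1015 above 0 and 3145 below), and the others 0.18 (3475 above and 2852 below). The member medians thus had the sign of the genome-wide ones, and promoter shares of the libraries, given above, differed within and between the cell types. Median-ratio scaling gave medians of -0.43 and 0.59, and leaving out 1 preparation gave promoter medians from -1.18 (8 of 8 below 0, without ES-EP B) to -0.20 (5 of 8 below 0, without ES-EP A) and internal medians from 0.25 to 0.84. The part of these shares in the member values was not tested.

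The GGAA core lay in all 19 peak windows, as it did in 99.6% of all sites and 99.0% of promoter windows of the same length, counting both strands. GAGGAA lay in 9 of the 19 (47.4%), against 65.4% of all sites and 41.2% of promoters, and GAGGAAGT, which contains it, in 4 (21.1%), against 31.0% and 4.41%. These 4 were the internal sites of Elf4 (18.3 kb) and Etv6 (106.0 and 227.5 kb) and the Gabpa promoter. CCGGAA lay in 2 windows (10.5%, against 17.5% and 24.9%) and CCGGAAGT, which contains it, in 1 (5.26%, against 4.32% and 5.87%), the Gabpa promoter. GGAAGT, which is part of both 8-base forms and was added after the windows were seen, lay in 15 (78.9%), against 70.2% and 32.5%. The median GC content was 71.5% in the promoter sites and 49.8% in the others, against 50.2% in all sites and 58.8% in all promoters.

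A further 16 ETS family genes were counted by the same rule, Sfpi1, Spic, Fli1, Fev, Elf3, Elf5, Ehf, Elk1, Elk4, Etv1, Etv2, Etv3, Etv4, Etv5, Erf and Spdef. Sites were found in either cell type at 6 of the 16, beside 35.9% of all protein-coding genes. These were Sfpi1, Fli1, Elk1, Elk4, Etv3 and Erf, each with a promoter site in MEL cells, and 3 of these (Sfpi1, Elk4 and Etv3) also had one in ES-EP. Of all protein-coding genes, 16.0% had a promoter site in MEL cells, against 10.6% in ES-EP. At Fli1 the study, which merged the preparations, reported PU.1 occupancy in ES-EP as well as in MEL cells, by ChIP-Seq and by ChIP with quantitative PCR. Together the 6 genes held 10 sites called in MEL cells, against 3 in ES-EP. Of all sites, 30.9% were called in both cell types, 46.1% in MEL cells only and 22.9% in ES-EP only. By limma 4 sites of the 6 genes were higher in MEL cells, all at Fli1, which neighbours Ets1 on chromosome 9. At these genes 0 sites were higher in ES-EP, beside 10.2% of all sites higher in MEL cells and 5.23% higher in ES-EP. All 4 entered the fit through their calls in MEL cells, the group in which they were high, and input reads in the 1 Mb around them were 1.74 to 1.75 times as many in MEL cells. Their limma adjusted p was 0.0828 to 0.785 with windows taken whatever their call, 0.0856 to 0.127 without MEL A, 0.127 to 0.209 without MEL B, and 0.0299 to 0.119 with the regional input ratio subtracted. With the 10 genes above, sites were found at 15 of 26 ETS genes.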

How the data were processed

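The authors deposited alignments (BED), 1 line for each read placed uniquely on mm9, by ELAND per the study's methods, after Illumina sequencing of PU.1 and input chromatin, with no count table or normalized value. Per the labels, 11 libraries fell into MEL and ES-EP, PU.1 and input. The preparation was read from the letter in the sample titles. The ES-EP files are named by other letters, which group the same libraries into the same preparations. Reads on chromosomes 1 to 19, X and Y were moved toward the fragment centre by 70 bp (MEL) or 65 bp (ES-EP) and counted in 500 bp windows every 250 bp. Both libraries of a preparation were summed. Input scaled for depth gave the expected count, the test was a one-sided exact Poisson test, and Benjamini-Hochberg adjustment ran over all 10619594 windows. Touching called windows were joined to sites, and the 500 bp window with the most depth-scaled PU.1 reads stood for each. Sites lay within 2 kb of a TSS (promoter), elsewhere in the gene (internal), or in the 10 kb flanks, by GENCODE M1 on NCBIM37, the same build. Cell types were compared in limma 3.58.1 (voom, R 4.3.3), two-sided, on all 10487 sites and 22359 promoters, without the inputs. No filter on low values was used, so all 10 genes entered. Motifs were counted on both strands. The scripts (Python 3.11.15) were tested on simulated data.

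All 10 genes were named with their promoters. Of their sites, the promoter site with the most reads, up to 2 further sites with the most reads and any site past the limma threshold were named. The members, lists and tests were chosen with earlier results of these data known. The letters A and B were not treated as pairs across the cell types. The A minus B differences correlated at -0.00449 over sites and -0.0992 over promoters. This shows no shared effect of the letter, but cannot show that same-lettered preparations were handled apart. Alternatives changed the test, threshold, input, window, repeated reads, scaling, weights, filter, regional input and preparations. Sequencing depth limits each value, since 1 read is 0.141 to 0.176 reads per 1000000 (RPM), and Poisson p-values cover counting error only. Reads without molecular identifiers are not independent molecules.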

Additional observations from a re-analysis of the deposited data

Results flagged for a closer look

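In groups of 4 libraries, the highest or lowest library was compared with the rest by Dixon's ratio of gap to range, at its 95% critical value. Of 54 groups tested, 3 exceeded it. Chance gives about 1 in 20 for independent values. Here each group held 2 libraries from each of 2 preparations, and groups at the same gene can share reads, so that rate is only a rough guide. At the Ets1 promoter, MEL library A2 held 1.37 RPM, against 5.85 for the next library and 6.59 for the highest (ratio 0.859). At the Elf1 promoter, MEL library B2 held 11.1 RPM, against 6.95 for the next and 6.33 for the lowest (ratio 0.869). At the Gabpa promoter site, ES-EP library A2 held 5.34 RPM, against 3.72 and 3.40 (ratio 0.836). The causes were not tested.

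The intronic Ets1 sites at 31.9 and 36.4 kb differed between MEL cells and ES-EP by limma, with log2 differences of 3.52 (adjusted p = 4.68e-04) and 2.84 (adjusted p = 0.00244). Both MEL preparations were higher than both ES-EP preparations at each. Both were chosen by their calls in MEL cells, and with windows taken whatever their call the limma adjusted p was 0.583 and 0.449.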

How the results depend on the processing

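Calls of enrichment depended on the test. An exact binomial test of PU.1 against input reads gave 3 sites in MEL cells, against 4 in ES-EP, at 2 and 3 promoters. The first library of each preparation alone gave 5 and 4 sites, at 2 and 3 promoters. Summing the preparations before the test gave 32 and 29 sites, and leaving the window out of the input gave 20 in ES-EP. Calls by 1 preparation gave 17 to 23 sites in MEL cells, 14 to 23 in ES-EP, and 5 to 7 and 5 to 6 promoters.

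Between cell types, 2 sites passed limma, 4 with log2 RPM plus 0.5 and 6 with median-ratio scaling, beside 15.4%, 18.1% and 30.4% of all sites. With all windows of at least 20 PU.1 reads, whatever their call, as the features (chosen after seeing the data), 0 sites passed and 5 were below 0.05 unadjusted (Ets1 adjusted p 0.583 and 0.449, the highest of any alternative). Leaving out 1 preparation gave 0 to 3 sites (0 without MEL A or MEL B, where 2 and 5 were below 0.05 unadjusted and 0.324% and 0.124% of all sites passed), and an arm of 1 preparation was then assumed to vary like the other. With the preparation letter as a replicate block, 2 sites and 0 promoters passed (limma adjusted p of the Ets1 sites 0.00205 and 0.00651), and no other call changed. No promoter of the 10 genes passed under any alternative, with up to 3 below 0.05 unadjusted.

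Signs of small differences turned. The Etv6 promoter site became -0.02 with the regional input ratio subtracted, and the Etv6 site at 29.5 kb 0.06 under the block and 0.06 with median-ratio scaling. The Ets1 promoter became -0.29 and the Etv6 promoter 0.00 with the regional ratio subtracted, the Etv6 promoter -0.14 over 1 kb on each side, and the Ets2 and Spib promoters 0.12 and 0.25 with median-ratio scaling. Leaving out 1 preparation moved the Ets2 site from -0.90 to 0.32, Elf2 at its first TSS from -1.47 to 0.10, the Etv6 promoter site from -0.46 to 0.67, Etv6 at 29.5 kb from -0.88 to 0.73, Spib from -2.45 to 0.87, and the promoters of Ets2 from -0.72 to 0.37, Etv6 from -0.54 to 0.78, Gabpa from -1.08 to 0.01 and Spib from -0.52 to 0.29. The causes were not tested.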
